A study of Mus musculus with 26 samples.

Results

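Fos, Fosb, Fosl2, Jun, Junb and Jund encode subunits of the transcription factor AP-1, and their RNA was followed in 2 lines of mouse S49 T lymphoma cells while cyclic AMP (cAMP) signalling was switched on. The 6 genes were taken as every probe set whose platform annotation gives one of these symbols alone, which found 7 probe sets, 1 per gene and 2 for Jun. They are 6 of 12393 genes with such a probe set on the array, and 5 of the 6, all but Fosb, were bright enough to be tested, among 7435 tested genes. Wild-type S49 cells (WT) stop dividing and die when cAMP stays high, and D- is a variant named deathless that survives it. Both were grown in suspension in medium with horse serum and were either left untreated or given 8-CPT-cAMP, a cAMP analogue that enters cells and activates protein kinase A, for 2, 6 or 24 h. The 26 single-colour arrays, 1 per sample, form 8 groups: untreated WT and untreated D- with 4 arrays each, and each line at each treated time with 3. The labels name no transgene and no second agent, and whether D- is 1 clone is not given in the sources used here, so a difference between WT and D- is one between these 2 cell lines. Replicates are labelled biological, but no label says that they came from separate cultures, and p-values then measure only the spread among these arrays. The titles of treated WT samples call them untreated while giving a time. Since their other fields name the treatment, they were taken as treated. The stated dose of 100 mM may be a unit error.

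AP-1 is a dimer. Jun proteins pair with each other or with a Fos protein, whereas Fos proteins need a Jun partner, so the subunits that a cell makes set which dimers can form. Several of these genes are immediate-early genes, whose transcription starts within minutes of a signal without new protein synthesis and whose messages are short-lived. Protein kinase A phosphorylates the factor CREB, which binds cAMP response elements (CREs), and the Fos promoter is a well-known target of this route as well as of the serum response factor. In T cells AP-1 acts together with NFAT at cytokine genes.

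Promoter sequence is shown for 4 members: Fos and Junb, whose RNA rose in both lines, Fosb, which carries the same short CRE letters, and Jun, whose promoter holds another known site and whose RNA varied little. RefSeq promoter windows (mouse build GRCm38.p6, 250 bases before to 50 after the annotated start) matched 6 of 6 members by symbol, and the last 130 bases before the start are printed 5′ to 3′ on the gene's strand. Capitals mark the motifs found. The Fos stretch lies at chr12:85473760-85473889 (+), the Fosb stretch at chr7:19310046-19310175 (-), the Junb stretch at chr8:84978749-84978878 (-) and the Jun stretch at chr4:95052223-95052352 (-).
Fos: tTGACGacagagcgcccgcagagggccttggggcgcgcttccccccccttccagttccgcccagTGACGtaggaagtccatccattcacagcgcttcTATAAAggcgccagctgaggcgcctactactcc
Fosb: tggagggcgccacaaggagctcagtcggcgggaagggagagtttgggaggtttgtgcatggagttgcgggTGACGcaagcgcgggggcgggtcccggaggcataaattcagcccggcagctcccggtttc
Junb: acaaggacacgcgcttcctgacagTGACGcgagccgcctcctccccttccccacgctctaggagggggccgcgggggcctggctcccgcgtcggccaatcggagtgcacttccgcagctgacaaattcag
Jun: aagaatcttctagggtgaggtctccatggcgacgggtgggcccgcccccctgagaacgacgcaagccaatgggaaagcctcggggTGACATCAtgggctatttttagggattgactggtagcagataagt

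The motifs were searched on both strands of each window, and overlaps between motifs were allowed. TGACG, the core of the CRE, began 129 and 66 bases before the start of Fos, 60 bases before that of Fosb and 106 bases before that of Junb. The same letters stood in 20.8% of all 32851 windows. TATAAA began 33 bases before the start of Fos and at base 1 of the annotated Junb transcript, and 13.6% of windows held it. TGACATCA, the variant site to which Jun and ATF proteins bind, began 45 bases before the start of Jun and stood in 3.62% of windows. It was added to the search after the sequence had been seen. The full CRE TGACGTCA (1.79% of windows), the AP-1 site TGACTCA with its reverse complement TGAGTCA (5.2%) and the CArG box bound by the serum response factor (1.63%) had no match in the windows of the 6 members, and Fosl2 and Jund held none of the motifs searched. A match is a string of letters and no match concerns this window only.

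Levels are log2 of the deposited GCRMA intensity. A value of log2 5 was taken as the limit of measurement, because the deposited values carry no detection call. A change from or to a group mean under that limit is given as at least the distance from the brighter mean to 5. An adjusted p beside such a bound is that of the fitted change, which uses the values under the limit. A call means a limma adjusted p under 0.05 over all probe sets tested, and errors of changes are standard errors. Array medians ran from log2 5.38 to 5.504, arrays of a group correlated at r 0.99 to 0.998 over all probe sets other than array controls, and the number of arrays limits the precision. The arrays fall into clusters that the labels do not name: cluster 1 has 10 arrays (in treated groups replicate 1, in untreated groups replicates 1 and 2) and cluster 2 has the other 16, along an axis with 38.8% of the within-group variance. The clusters were taken from the deviations of these same arrays from their group means. Fitting the cluster as a block, or within 1 cluster, therefore removes spread by construction. Calls gained that way are no separate support. Of 9 T cell markers on the array, 7 or 8 had a group mean at or above log2 5 in every group, Cd5 stayed under it on every array, and no group had more than 1 of 5 B cell markers above it. The summed T cell marker level was log2 15.0 to 15.2 at 24 h against 14.4 to 14.8 in untreated cells. In D- it was 14.05 to 14.21 at 2 h and 13.96 to 14.20 at 6 h, against 14.42 to 14.65 untreated. In WT it was 14.33 to 14.54 at 2 h and 14.39 to 14.65 at 6 h, against 14.555 to 14.782 untreated. The summed level of 5 stromal markers was 6.77 to 7.34 in WT at 6 h against 5.65 to 5.75 in untreated WT. Pdgfrb was the 1 stromal marker whose group mean passed the limit. The summed level of 6 myeloid markers reached 7.94 in WT and 7.71 in D- at 24 h, against at most 7.12 and 7.22 in untreated cells. Of these 6, 1 to 3 had a group mean at or above the limit in each group, and Csf1r was above it on all 26 arrays. So had 1 of 3 erythroid markers on the array in every group. The part of these markers in the results was not tested.

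**Figure D1:**
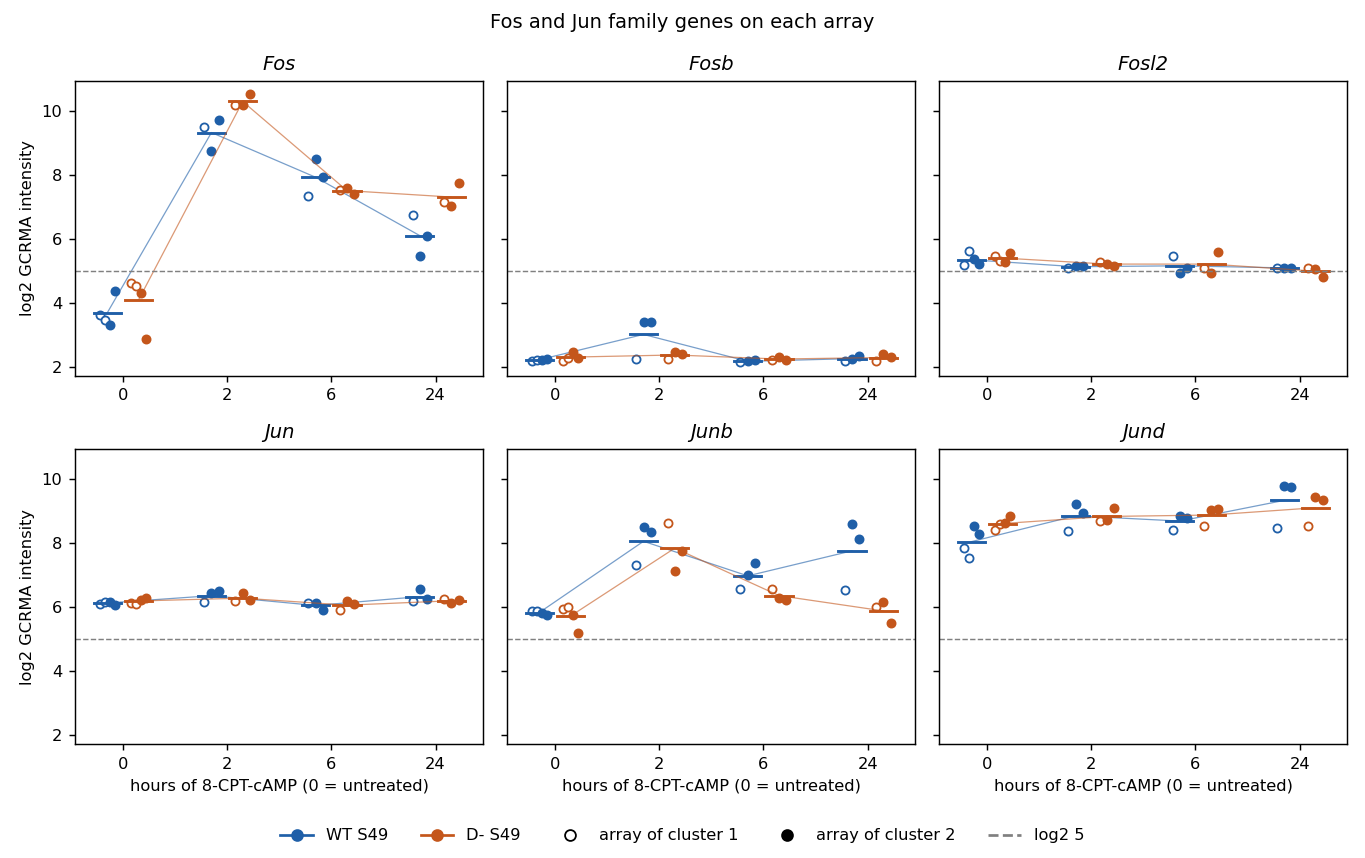
Log2 GCRMA intensity (vertical axis) of the 6 AP-1 genes on each array against hours of 8-CPT-cAMP (horizontal axis, evenly spaced), WT in blue and D- in orange, with a bar at each group mean, open points for arrays of cluster 1, filled points for cluster 2 and a dashed line at log2 5. Fos went from under the line to group means of 9.33 and 10.31 at 2 h, Junb at 24 h was at 7.76 in WT and 5.88 in D-, Jun and Fosl2 moved little and Fosb stayed under the line.

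Fos, the founding member of its family and a subunit that activates transcription when paired with Jun, rose at every treated time in both lines. In untreated WT its level was 3.61, 3.45, 3.29 and 4.39 on the 4 arrays, and in untreated D- it was 4.63, 4.54, 4.32 and 2.86. All 8 untreated arrays lay under the limit, and Fos was bright enough to be tested only through its treated arrays. At 2 h the 3 WT arrays read 9.51, 8.75 and 9.73 and the 3 D- arrays 10.19, 10.20 and 10.53. Every D- array was above every WT array at that time, though the difference between the lines, 0.97 ± 0.40, was not called (adjusted p = 0.193). The rise over untreated cells was at least 20.2-fold in WT (adjusted p = 3.66e-10) and at least 39.6-fold in D- (8.42e-11). In bulk RNA such as this, more RNA per cell and more cells that express a gene cannot be told apart.

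At 6 h Fos stood at 7.35, 8.50 and 7.94 in WT and at 7.54, 7.58 and 7.42 in D-, so the lines overlapped. This was a rise over untreated cells of at least 2.93 on the log2 scale in WT (adjusted p = 2.83e-08) and of at least 2.51 in D- (6.74e-07). From 2 to 6 h the Fos level fell by 1.40 ± 0.40 in WT (adjusted p = 0.0168), and in D- it fell by 2.79 ± 0.40 (4.39e-05). The D- step was the lowest of 6942 genes measured at both times, and its call held under all 39 alternatives tried. The WT call was lost without WT 2 h replicate 1 (adjusted p = 0.0572) or 3 (0.0717), without WT 6 h replicate 1 (0.0773), within cluster 1, which leaves 2 residual degrees of freedom (-2.16, 0.0642), and within cluster 2 (-1.02, 0.141). The fall was 1.39 ± 0.57 larger in D- than in WT, a difference that was not called (adjusted p = 0.868).

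By 24 h Fos was at 6.74, 5.47 and 6.10 in WT and at 7.16, 7.04 and 7.74 in D-, and the lines did not overlap. The level was still above untreated cells, by at least 1.10 in WT (adjusted p = 1.35e-05) and at least 2.31 in D- (1.03e-06). From 6 to 24 h Fos fell by a further 1.83 ± 0.40 in WT (adjusted p = 0.00144), while its change in D- was -0.20 ± 0.40 (0.816). Within cluster 1, with 1 array at each of those times, the WT step was -0.62 (adjusted p = 0.135). The difference between the lines in this late step, 1.63 ± 0.57, was not called (adjusted p = 0.102). It passed with array weights (0.0198), with an offset of 16 before log2 (0.0319), without untreated D- replicate 4 (0.038) and without WT 24 h replicate 1 (0.0347).

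At 24 h Fos was 1.21 ± 0.40 higher in D- than in WT, a 2.32-fold difference in level (adjusted p = 0.0275). That call was lost when only the groups compared were fitted (adjusted p = 0.0607), with no filter on dim probe sets (0.0523), within cluster 1 (0.42, 0.205) and without D- 24 h replicate 3 (0.115) or WT 24 h replicate 2 (0.166) or 3 (0.0682). Measured against each line's own untreated cells, the fitted difference of response was 0.81 ± 0.53 at 24 h and was not called (adjusted p = 0.386), with -0.63 within cluster 1 and 1.86 within cluster 2. Ordered by mean, Fos ran from D- at 2 h (10.31) and WT at 2 h (9.33) through WT at 6 h (7.93), D- at 6 h (7.51) and D- at 24 h (7.31) to WT at 24 h (6.10) and the untreated cells. Among neighbouring treated groups that were compared directly, WT at 2 and 6 h were called different, as were D- and WT at 24 h. D- and WT at 2 h, WT and D- at 6 h, and D- at 6 and 24 h were not.

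Fosb, an immediate-early relative of Fos, stayed under the limit on all 26 arrays, from 2.14 to 3.41, and was not tested. Its highest values were the 3.41 and 3.39 of WT 2 h replicates 2 and 3, while WT 2 h replicate 1 read 2.23 and D- at 2 h reached no more than 2.47. With no filter on dim probe sets it was called higher in WT at 2 h (adjusted p = 0.00328) and lower from 2 to 6 h in WT (0.00534), and in D- it was not called at those times, but the difference of the 2 h changes was not called either (0.68). With both means under the limit no fold is given. Its promoter holds the same short CRE letters as those of Fos and Junb.

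Fosl2, which encodes Fra-2, a Fos relative without the strong activation domain of Fos, lay near the limit everywhere. Untreated D- ranged from 5.29 to 5.55 and D- at 24 h read 5.08, 5.07 and 4.82, with no overlap. Its level was lower at 24 h in D- by at least 0.40 on the log2 scale (fitted -0.41 ± 0.14, adjusted p = 0.0294). The call was lost within cluster 1 (adjusted p = 0.436) and cluster 2 (0.0605), and without untreated D- replicate 1 (0.0615) or 4 (0.0812) or D- 24 h replicate 2 (0.0504) or 3 (0.145). In WT the change at 24 h was -0.25 ± 0.14 and was not called (adjusted p = 0.144), nor was the difference between the lines in this response (fitted -0.16 ± 0.20, 0.702). At 2 and 6 h no change of Fosl2 exceeded 0.22 in size and none was called, and the 6 h change in D- passed without D- 6 h replicate 3 (-0.39, adjusted p = 0.0456).

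Junb, a Jun protein that activates transcription less strongly than Jun and can hold Jun activity down, rose at 2 h in both lines and was called above untreated cells at 6 and 24 h in WT. Untreated levels were 5.87, 5.89, 5.82 and 5.74 in WT and 5.93, 6.01, 5.75 and 5.19 in D-. At 2 h they were 7.31, 8.52 and 8.36 in WT and 8.65, 7.14 and 7.75 in D-. Every 2 h array lay above every untreated array, and the lines overlapped. The rise was 2.23 ± 0.39 in WT, 4.70-fold (adjusted p = 0.000168), and 2.13 ± 0.39 in D-, 4.37-fold (0.000308), and Junb ranked 65 of 6987 genes in WT and 64 of 6954 in D- by the size of the rise, among genes measured on both sides.

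At 6 h Junb read 6.58, 6.99 and 7.37 in WT and 6.58, 6.29 and 6.21 in D-. It remained 1.15 ± 0.39 above untreated cells in WT (adjusted p = 0.0242), a call lost without WT 6 h replicate 2 (0.0649) or 3 (0.116). In D- the excess was 0.64 ± 0.39 and was not called (adjusted p = 0.238), although it passed with array weights (0.0379), with only the groups compared (0.0409) and within cluster 2 (0.0367). From 2 to 6 h Junb fell by 1.49 ± 0.42 in D- (adjusted p = 0.0123), a call lost without D- 2 h replicate 1 (0.0832). Its WT change over the same hours was -1.08 ± 0.42 and was not called (0.0673), and it passed with array weights (0.00812), within cluster 2 (0.00422) and without WT 2 h replicate 1 (0.0274), WT 24 h replicate 1 (0.0203) or 2 (0.0468).

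At 24 h the lines stood apart. WT read 6.54, 8.60 and 8.15 and D- read 6.00, 6.15 and 5.50, so the highest D- array lay below the lowest WT array. Junb was 1.93 ± 0.39 above untreated cells in WT, 3.82-fold (adjusted p = 0.000229), a change that was called under all 39 alternatives and measured 0.66 within cluster 1 and 2.59 within cluster 2. In D- the change was 0.16 ± 0.39 (adjusted p = 0.806), and the D- arrays at 24 h overlapped untreated D-. The level in D- was 1.88 ± 0.42 below that in WT, 3.68-fold (adjusted p = 0.0015), a call lost within cluster 1 (-0.54, 0.108) and with only the groups compared (0.0542).

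The D- minus WT difference of the Junb response at 24 h was -1.77 ± 0.55 (adjusted p = 0.0376). It was negative under all 39 alternatives, from -2.38 to -0.64, but its call was lost under 14 of them. These were the fit of only the groups compared (adjusted p = 0.0555), no filter (0.0705), cluster 1 alone (-0.64, 0.167) and 11 of the 26 fits that left out 1 array: untreated D- replicate 1 (0.0653), 2 (0.0702) or 3 (0.057), each untreated WT replicate (0.0525 to 0.0602), D- 24 h replicate 1 (0.0617) or 3 (0.094), and WT 24 h replicate 2 (-1.35, 0.15) or 3 (0.109). Within cluster 2 it was -2.24 (adjusted p = 0.00139). The late step of Junb, from 6 to 24 h, was 0.78 ± 0.42 in WT and -0.48 ± 0.42 in D-, and neither step (adjusted p = 0.166 and 0.511) nor their difference of -1.26 ± 0.59 (0.255) was called. The WT step passed with array weights (0.91, 0.00447), within cluster 2 (1.19, 0.00316) and without WT 24 h replicate 1 (1.40, 0.00551). The difference passed with array weights (0.0221), within cluster 2 (0.0141) and without WT 24 h replicate 1 (0.0149).

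**Figure D2:**
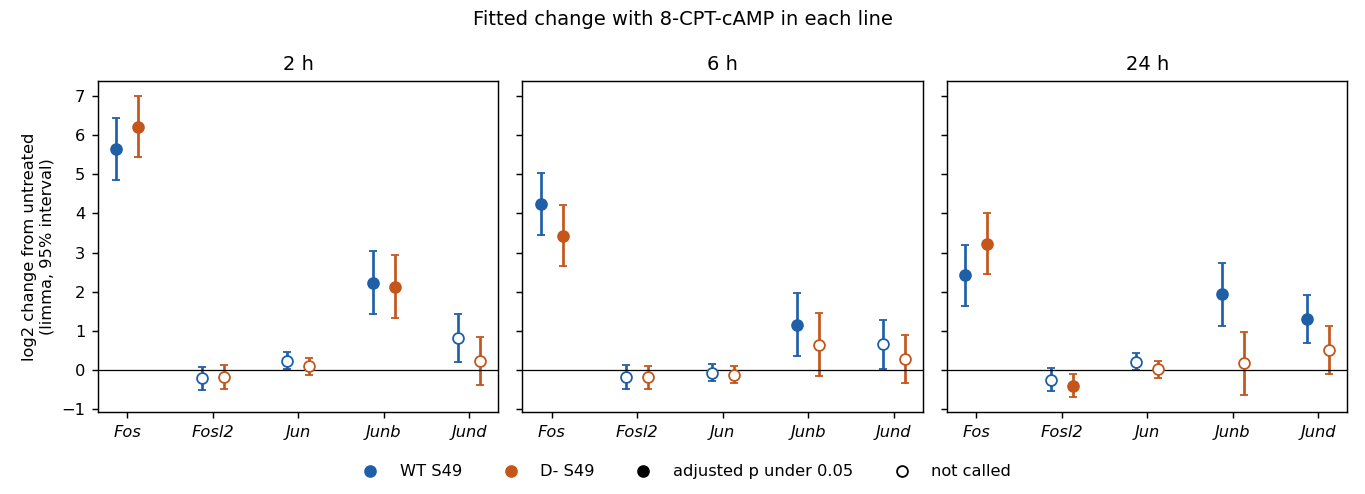
Fitted log2 change from untreated cells with its 95% interval (vertical axis) for the 5 tested AP-1 genes (horizontal axis) at 2, 6 and 24 h, WT in blue and D- in orange, filled where limma's adjusted p was under 0.05. Changes of Fos are fitted values from an untreated level under log2 5. Junb was raised by 2.23 and 2.13 at 2 h in WT and D- and by 1.93 and 0.16 at 24 h, and Jund was called in WT at 24 h (1.29).

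Jund, a Jun protein that most cells make constantly and that can restrain growth, was well above the limit on every array. Untreated levels were 7.84, 7.54, 8.53 and 8.29 in WT and 8.40, 8.60, 8.62 and 8.85 in D-. In WT it read 8.38, 9.25 and 8.96 at 2 h, 8.43, 8.86 and 8.80 at 6 h, and 8.47, 9.79 and 9.78 at 24 h. In D- it read 8.71, 8.71 and 9.10 at 2 h, 8.53, 9.06 and 9.07 at 6 h, and 8.55, 9.44 and 9.35 at 24 h. At each treated time in each line replicate 1, of cluster 1, was the lowest array, and it overlapped the untreated arrays of its line.

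In WT the Jund level at 24 h was 1.29 ± 0.30 above untreated, 2.45-fold (adjusted p = 0.000877), and this call held under all 39 alternatives, at 0.78 within cluster 1 and 1.37 within cluster 2. Smaller WT differences at 2 h, 0.81 ± 0.30 (adjusted p = 0.0504), and 6 h, 0.64 ± 0.30 (0.0978), were not called. They passed under 15 and 6 of 39 alternatives. With the cluster as a block they shrank to 0.71 (adjusted p = 0.00262) and 0.54 (0.0128). A larger share of the untreated than of the treated arrays is in cluster 1, where Jund read lower. Changes of Jund from untreated cells fitted without the block therefore take in part of that difference. In D- the changes of Jund were 0.22, 0.27 and 0.49 at 2, 6 and 24 h and none was called, and the last passed with array weights (0.0375), with the replicate block (0.0423) and within cluster 2 (0.66, 0.00321). The difference of response at 24 h, -0.80 ± 0.42, was not called (adjusted p = 0.251), and passed with array weights (0.028), within cluster 2 (0.0333), with the cluster as a block (0.022) and without WT 24 h replicate 1 (0.0225). Jund moved with the array clusters: its mean deviation from the group mean was -0.363 on the 10 arrays of cluster 1 and 0.227 on the 16 of cluster 2. The same deviations were -0.065 and 0.04 for Junb and 0.068 and -0.043 for Fos. Untreated D- was 0.57 ± 0.28 above untreated WT in Jund (adjusted p = 0.377), which passed with the cluster as a block (0.0274).

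Jun, the family's founder and its strongest activator, stayed between 5.90 and 6.56 on all 26 arrays. No change of Jun was called in any comparison of the fit to all arrays. Its largest change from untreated cells was 0.23 ± 0.11 in WT at 2 h (adjusted p = 0.127), where the arrays read 6.15, 6.44 and 6.49 against 6.08 to 6.17 in untreated WT. That change passed with array weights (0.0219) and without WT 2 h replicate 1 (0.0343). From 2 to 6 h in WT Jun changed by -0.31 ± 0.11 (adjusted p = 0.0574), which passed under 8 alternatives, among them the replicate block (0.037) and the cluster as a block (0.0261). From 6 to 24 h in WT it changed by 0.28 ± 0.11 (adjusted p = 0.0675), which passed under 5: array weights (0.00372), the replicate block (0.0463), the cluster as a block (0.0346), cluster 2 alone (0.0302) and without WT 24 h replicate 1 (0.0359). The 95% interval of the D- change in Jun was -0.13 to 0.31 at 2 h, -0.35 to 0.09 at 6 h and -0.21 to 0.23 at 24 h. The second Jun probe set stayed under the limit, at 2.26 to 2.59, and was not tested.

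Of the 5 tested members, 2 rose in WT at 2 h, when 11.2% of tested genes rose, 2 at 6 h (19.1%) and 3 at 24 h (26.4%). In D- 2 rose at 2 h, against 9.05% of tested genes, 1 at 6 h (16.2%) and 1 at 24 h (17.1%), and at 24 h 1 was lower (17.6%). The member called at every time in both lines was Fos, which was bright enough to be tested only through its treated arrays. The median change of the 5 members was 0.81, 0.64 and 1.29 in WT and 0.22, 0.27 and 0.16 in D- at 2, 6 and 24 h, beside medians of all tested genes between -0.02 and 0. From 2 to 6 h, 1 member fell in WT, against 9.05% of genes, and 2 in D- (9.21%). From 6 to 24 h, 1 fell in WT (16.9%), and limma called none in D-, where 16.1% of genes changed in either direction and no member reached an unadjusted p under 0.05.

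Between the lines limma called no member in untreated cells, where 5.00% of genes differed in either direction and no member reached an unadjusted p under 0.05. The difference of response was called for no member at 2 h (0.242% of genes) or 6 h (0.592%), again with none at an unadjusted p under 0.05, and for Junb at 24 h, when 5.00% of genes responded lower in D-. Levels of treated cells were compared after the data had been seen. No member was called at 2 h (6.70% of genes in either direction, with Fos at an unadjusted p under 0.05) or at 6 h (7.32%, with none), and at 24 h Fos was higher in D- (15.5% of genes higher) and Junb lower (14.8% lower). The step from 2 to 6 h was called different between the lines for no member (0.161% of genes, with Fos at an unadjusted p under 0.05), and the step from 6 to 24 h for none either (7.22%, with Fos and Junb at an unadjusted p under 0.05).

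The other bZIP genes of the Fos, Jun and ATF families numbered 8 on the list, all on the array, of which 4 were tested. Jdp2 encodes a Jun partner that represses AP-1, and Batf is a small AP-1 subunit of lymphocytes without an activation domain. They were the members of this list that rose, 2 of 4 at 2 h in each line. Of all tested genes, 11.2% rose in WT and 9.05% in D- at that time. Jdp2 levels ran from 10.10 to 10.57 in untreated WT, 9.61 to 10.47 in untreated D-, 11.06 to 11.41 in WT at 24 h and 12.02 to 12.03 in D- at 24 h. No treated array of Jdp2 overlapped the untreated arrays of its line. It rose by 1.17 and 0.91 at 2 and 24 h in WT and by 1.87 and 2.06 in D-, each ± 0.18, and the largest adjusted p of these changes was 0.000152. The response was 1.15 ± 0.25 larger in D- at 24 h (adjusted p = 0.0033), a call lost under 1 of 39 alternatives, the fit within cluster 1 (0.86, 0.233).

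Batf rose by 1.36 ± 0.34 in WT (adjusted p = 0.00499) and 1.77 ± 0.34 in D- (0.00055) at 2 h. At 24 h it remained 1.34 ± 0.34 above untreated cells in WT (adjusted p = 0.00224), and its change in D- was 0.64 ± 0.34 (0.163). The level of Batf at 24 h was 0.98 ± 0.37 lower in D- than in WT (adjusted p = 0.0486), a call lost under 19 of 39 alternatives, and the difference of response was -0.70 ± 0.48 and was not called (0.415). The list's median change was 0.73 in WT and 0.91 in D- at 2 h and 0.40 and 0.28 at 24 h. The medians of all tested genes were -0.009 and -0.02 at 2 h and 0 and -0.021 at 24 h. Atf2 and Batf2, the other tested members, had no call against untreated cells at any time.

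**Figure D3:**
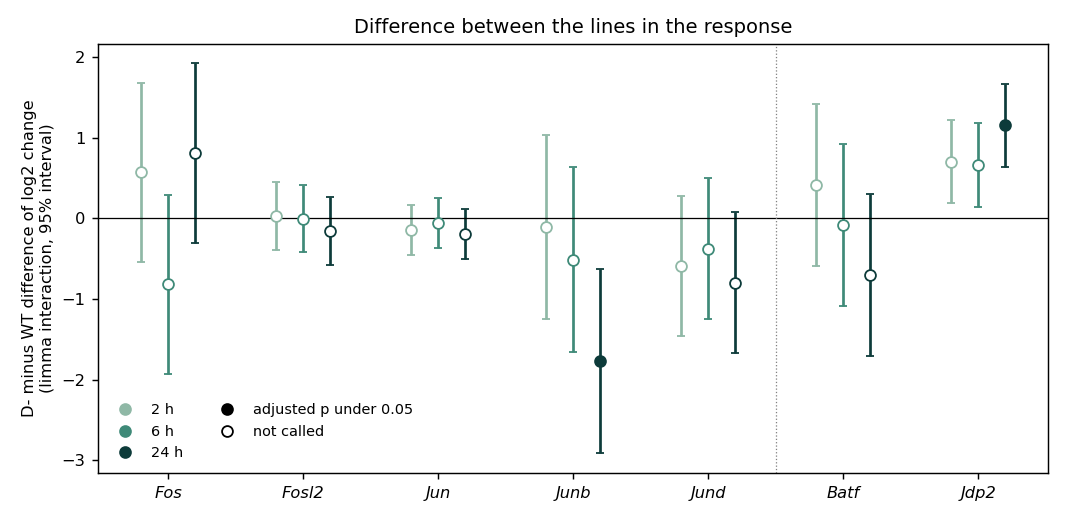
D- minus WT difference of the log2 change from untreated cells, with its 95% interval (vertical axis), for the 5 tested AP-1 genes and, right of the dotted line, the bZIP genes Batf and Jdp2, at 2, 6 and 24 h (pale to dark), filled where limma's adjusted p was under 0.05. Values of Fos, and that of Fosl2 at 24 h, are fitted from levels under log2 5. At 24 h Junb lay at -1.77 and Jdp2 at 1.15, on opposite sides of 0.

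Of 18 listed kinases and factors that act upstream of Fos and Jun, 13 were on the array and 11 tested, and in WT 1, 2 and 3 rose and 3, 1 and 1 fell at 2, 6 and 24 h, against 1, 4 and 2 up and 3, 1 and 2 down in D-. Of all tested genes, 11.2%, 19.1% and 26.4% rose and 13.9%, 19.1% and 27.5% fell in WT, and 9.05%, 16.2% and 17.1% rose and 13.2%, 15.6% and 17.6% fell in D-, and counts over 11 genes beside such shares are no result about the list. Elk3 is a partner of the serum response factor that can repress Fos. It fell at 2 h by 0.97 ± 0.24 in WT (adjusted p = 0.00454) and by at least 1.44 in D- (9.11e-05). At 6 h it was above untreated cells by 0.92 ± 0.24 in WT (adjusted p = 0.00472) and 1.21 ± 0.24 in D- (0.000567). Any link between Elk3 and Fos levels was not tested. At 24 h Elk3 was above untreated cells by 2.09 ± 0.24 in WT (adjusted p = 2.59e-07) and 1.37 ± 0.24 in D- (0.000134), the latter lost under 1 of 39 alternatives, the fit within cluster 1 (0.74, 0.0548). Srf, the serum response factor itself, fell by 0.83 ± 0.13 in WT at 2 h (adjusted p = 5.79e-05), by 0.36 with all its probe sets averaged (0.00437), and lost its call within cluster 1 (-0.79, 0.0625). In D- at 2 h Srf changed by -0.58 ± 0.13 (adjusted p = 0.00223). Map3k1, a kinase upstream of JNK, rose at 2 h by 1.01 ± 0.15 in WT (adjusted p = 2.41e-05) and 0.64 ± 0.15 in D- (0.00314).

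Other immediate-early genes, 12 on the list and 8 tested, were called in 1 direction against untreated cells. Egr1, Egr2, Egr3 and Klf4 were on the array but too dim to be tested, so the counts concern the 8 tested genes only. In WT 6, 5 and 5 of the 8 rose at 2, 6 and 24 h and in D- 5, 4 and 5, with none lower, beside 11.2%, 19.1% and 26.4% of all tested genes higher in WT and 9.05%, 16.2% and 17.1% in D-. Zfp36, which encodes a protein that speeds the decay of messages with AU-rich ends, rose by 3.85 ± 0.21 in WT and 3.86 ± 0.21 in D- at 2 h (adjusted p = 1.74e-11 in both). It fell from 2 to 6 h by 2.09 ± 0.23 in WT (adjusted p = 3.95e-06) and 2.37 ± 0.23 in D- (3.68e-07). Dusp1, a phosphatase that switches MAP kinases off, stood at 8.40 in D- and 9.72 in WT at 24 h, a difference of -1.32 ± 0.45 (adjusted p = 0.0306) that was lost under 6 of 39 alternatives (0.0583 to 0.274). The nuclear receptor gene Nr4a1 responded 1.49 ± 0.41 more in D- than in WT at 24 h (adjusted p = 0.0192), a call lost with only the groups compared (the same 1.49, 0.0509), within cluster 1 (1.83, 0.168) and within cluster 2 (1.02, 0.118).

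Classic AP-1 target genes were mostly dim: 17 of 19 listed genes were on the array and 6 were tested. At 2 h 1 of the 6 rose in WT and none was called in D-, at 6 h 2 rose in each line, and at 24 h 1 rose and 1 fell in WT and 1 fell in D-. Counts over 6 genes are no result about the list beside the shares of all tested genes. At 2 h 11.2% of tested genes were higher in WT, and in D- 9.05% were higher and 13.2% lower. At 6 h 19.1% were higher in WT and 16.2% in D-. At 24 h 26.4% were higher and 27.5% lower in WT, and 17.6% were lower in D-. Ifng, the T cell cytokine interferon gamma, had a mean of 6.14 in WT at 2 h, at least 1.14 above untreated cells (adjusted p = 0.00241), but its arrays ran from 3.76 to 7.89, so the lowest was itself under the limit. The fitted change was 3.48, and it was 2.61 without WT 2 h replicate 2 (adjusted p = 0.0311) and 4.67 without replicate 1 (8.73e-05). Within cluster 1 both levels of Ifng lay under the limit. Ifng was bright enough to be tested only through treated WT arrays. Gclc, an enzyme of glutathione synthesis, changed by -0.87 ± 0.27 in WT (adjusted p = 0.00957) and -1.52 ± 0.27 in D- (0.000154) at 24 h. Vim, the filament protein vimentin, was 1.40 ± 0.41 higher in WT (adjusted p = 0.011) and 2.49 ± 0.41 higher in D- (9.04e-05) at 6 h.

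Genes with the profile most like each member were sought over the 8 group means, among 2902 tested genes (2903 for Fosl2 and Jun) whose means span at least 1 on the log2 scale, by Pearson's r. These are descriptions over 8 points from the same 26 arrays. Closest to Fos were Dctn4 (r = 0.977), a dynactin subunit, Tsc22d3 (0.974), which encodes the glucocorticoid-induced leucine zipper, and Adam9 (0.972), a membrane metalloprotease. Closest to Junb was Batf (0.968), which is also on the bZIP list, then Vps37b (0.953), an endosomal sorting subunit, and St7 (0.949). Vps37b went from 6.58 to 11.30 in WT and from 6.77 to 10.39 in D- at 2 h, and at 24 h stood at 10.52 in WT and 8.23 in D-. Closest to Jund were St6gal1 (0.941), a sialyltransferase, Wdr26 (0.932) and Unc119b (0.930). The means of Fosl2 span 0.41 and those of Jun 0.31, so their nearest genes, Abcb6 (0.975), Chdh (0.933) and Utp20 (0.930) for Fosl2 and B4galt1 (0.933), Nr1d2 (0.880) and Acss2 (0.782) for Jun, rest on small differences.

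**Figure D4:**
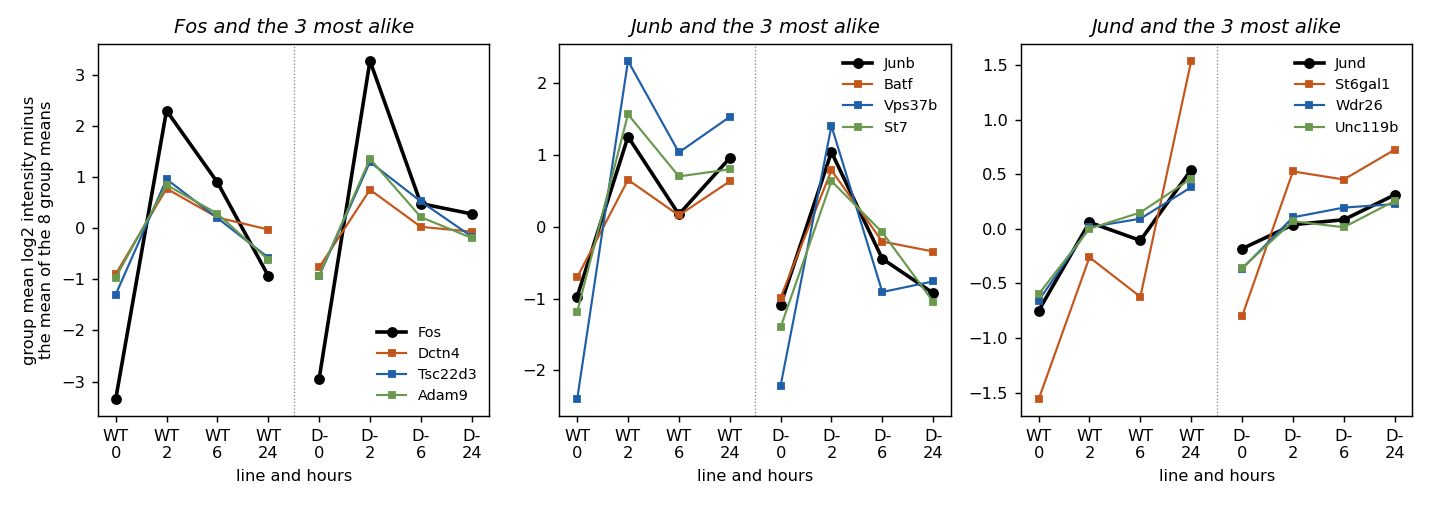
Group mean log2 intensity minus the mean of the 8 group means (vertical axis) for Fos, Junb and Jund (black) and the 3 genes most like each (colours), for WT and D- at 0, 2, 6 and 24 h (horizontal axis). The Junb panel shows Batf, Vps37b and St7, picked for likeness over these same means, falling with Junb in D- from 2 to 6 h. At 24 h these genes stand higher in WT than in D-.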

How the data were processed

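RNA of 26 samples was hybridised to single-colour Affymetrix mouse arrays. Probe sets were summarised by the authors with GCRMA, per the submitters' processing notes, and the deposited intensity values are linear, from 2 to 83530.7. The version of GCRMA used is not given in the sources used here. The method equalises intensity distributions and compresses values near its floor, so a change shared by most genes would not be seen. Log2 was taken here, with no pseudocount. Of 22690 probe sets, 64 array controls were left out and 20380 had 1 gene symbol. Those at or above log2 5 on at least 3 arrays were tested (12724), and the brightest stood for each gene. limma 3.58.1 in R 4.3.3 was fitted to 8 group means (18 residual and 3.34 prior degrees of freedom) with 14 contrasts, and 5 more were added after seeing the data, for D- against WT at each treated time and for the steps between times. Benjamini-Hochberg adjustment ran over all probe sets tested in a contrast. The members and lists were chosen with earlier results of these data known. The text names every member, at most the 3 largest called changes of a list per comparison, and the 3 genes most like a member. Other list genes named were chosen after their values were seen: Atf2, Batf2, Srf in D- at 2 h and, with its 24 h change not called, Batf. Egr1, Egr2, Egr3 and Klf4 are named as the untested genes of their list. Alternatives were normalization, moderation, array weights, the arrays fitted, the filter, an offset of 16, averaging a gene's probe sets, the replicate block, the array cluster, and each array left out.

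Tested on simulated data with 12724 probe sets, the fit recovered 35.8%, 77.6% and 100% of log2 changes of 0.5, 1 and 2 for WT at 2 h (10 false calls). For the 24 h difference of response the shares were 14.9%, 65.7% and 95.5% (4 false calls). The simulated noise was independent between arrays and held no array clusters. These shares and false calls therefore do not cover that part of the spread. Figures were drawn with matplotlib 3.10.9 in Python 3.11.15.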

Additional observations from a re-analysis of the deposited data

Results flagged for a closer look

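The difference of response between the lines, tested as limma's interaction, was called at 24 h for 1 AP-1 gene and 2 genes of the lists. For the 24 h difference of response, 12.3% of all tested genes were called in either direction. For Junb the D- minus WT difference was -1.77 (adjusted p = 0.0376), a call lost under 14 of 39 alternatives. The AP-1 partner Jdp2 differed the other way, by 1.15 (adjusted p = 0.0033), and the nuclear receptor gene Nr4a1 by 1.49 (0.0192). These calls were lost under 1 of 39 alternatives for Jdp2 and 3 of 39 for Nr4a1. The level of Nr4a1 was not called different between the lines in untreated cells or at 24 h. No member had an array that stood apart from its group by Dixon's criterion, which was applied to the untreated groups of 4. The nearest was untreated D- replicate 4 in Fos, at 2.86, with a gap of 0.824 of the range, just inside the critical value.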

How the results depend on the processing

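The count of AP-1 genes called was the same in all 39 alternatives for D- at 2 h (2), WT at 24 h (3), D- from 6 to 24 h (0), the difference of response at 2 and 6 h (0) and that of the step from 2 to 6 h (0). With array weights the count was 4 for WT at 2 h and for WT from 6 to 24 h, 3 for WT from 2 to 6 h, for WT at 6 h and for D- at 24 h, 2 for D- at 6 h, the 24 h difference of response and the difference of the step from 6 to 24 h, and 1 for D- against WT at 6 h. With only the groups compared it was 2 for D- at 6 h and 0 for the 24 h difference of response and for D- against WT at 24 h. With no filter, which adds Fosb, it was 3 for WT at 2 h and 2 for WT from 2 to 6 h, 0 for that difference of response and 1 for D- against WT at 24 h. With the filter at log2 7 D- at 24 h gave 1, because Fosl2 was no longer tested, and with quantile normalization WT from 2 to 6 h gave 2. An offset of 16 gave 1 for D- against WT at 2 h and for the difference of the late step. With the cluster as a block the counts were 1 for untreated D- against WT, 2 for the 24 h difference of response and WT from 2 to 6 h, and 3 for WT from 6 to 24 h. Within cluster 1, with 2 residual degrees of freedom, they were 1 for D- at 24 h and 0 for the 24 h difference of response, both WT steps and D- against WT at 24 h. Within cluster 2 they were 2 for D- at 6 h, that difference of response and WT from 2 to 6 h, 4 for WT from 6 to 24 h, and 1 for D- against WT at 2 h, at 6 h and for the difference of the late step. Apart from the filter, the cause was not tested.

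Leaving out 1 array at a time, the counts ranged from 2 to 4 for WT at 2 h, 1 to 3 for WT at 6 h, 1 to 2 for D- at 6 h, D- at 24 h, D- from 2 to 6 h and D- against WT at 24 h, 0 to 2 for the 24 h difference of response and that of the late step, 0 to 3 for WT from 2 to 6 h and 1 to 4 for WT from 6 to 24 h. Replicate numbers were not taken to pair the arrays, because the labels do not say that numbers are shared between groups. Deviations of same-numbered arrays from different groups correlated at -0.468 to 0.655 (median 0.266, 68 of 85 pairs over 0.1). For other numbers the median was -0.205 (79 of 210), and 8 of 26 arrays correlated best with their own number. These correlations do not decide whether the arrays were paired. The array clusters follow the numbers in part. The replicate block moved the counts to 2 for WT from 2 to 6 h and 3 for WT from 6 to 24 h and called Jund at 24 h in D- (adjusted p = 0.0423), at 2 h in WT (0.00378) and at 6 h in WT (0.011), Jun in both WT steps and Jund from 6 to 24 h in WT. Called values of list genes that changed sign were Rps6ka3 from 6 to 24 h in WT with all probe sets averaged (0.015) and, within cluster 1, Ifng in WT at 6 h (-0.026) and Srf in D- against WT at 24 h (0.14), and the cause was not tested. Of 3667 values of members under alternatives, 99 that were not called changed sign. Fos before treatment and the Fosl2 mean in D- at 24 h lay under log2 5, so changes between these and brighter means are bounds. Fosb and the second Jun probe set lay under it on every array, so no fold is given.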
